A study of Homo sapiens with 6 samples.

Results

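The S100 genes examined here were the 10 genes named S100A2, S100A3, S100A4, S100A6, S100A10, S100A11, S100A13, S100A14, S100A16 and S100P, found by gene name among the 62703 genes of the deposited table. They encode small calcium-binding proteins of the EF-hand type, and each symbol matched 1 gene. RNA was sequenced from PANC-1, a cell line from a human pancreatic cancer, in 3 libraries of DKK1-SE+/+ cells, the wild-type line, and 3 libraries of DKK1-SE-/- cells. The latter carry a homozygous CRISPR/Cas9 deletion of e1, a component enhancer of the super-enhancer DKK1-SE, and were grown from 1 subclone. The comparison asked how the deletion of e1 changed gene expression, and a difference made by the deletion cannot be told apart from one peculiar to that subclone or, given the marker genes below, from RNA of other cells. Expected counts summed to 21822314, 16475810 and 18803154 in the DKK1-SE+/+ libraries, in order of replicate, and to 17359835, 20098086 and 17804764 in the DKK1-SE-/- libraries, the order used throughout.

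S100 proteins mostly work as dimers that open on binding calcium and then grip a target protein, so that they pass calcium signals on to the cytoskeleton, to membranes and to enzymes. Some are also released from cells and bind surface receptors such as RAGE, the product of AGER. Several S100 genes are known for high expression in pancreatic ductal tumours, and most genes of the family lie close together on the long arm of chromosome 1.

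DKK1, the gene that the deleted enhancer is known to act on, served as a check of the labels. Its TPM, the authors' expression value scaled for length and library, was 229, 246 and 199 in DKK1-SE+/+ cells and 66.8, 79.8 and 82.7 in DKK1-SE-/- cells. All DKK1-SE-/- libraries were below all DKK1-SE+/+ libraries. Its log2 fold change was -1.45 (SE 0.11), with a Benjamini-Hochberg adjusted p of 6.16e-06 in edgeR's quasi-likelihood test, lower in 3 of 3 samples. The two-sided exact permutation test of TPM gave p = 0.1, the smallest that 3 against 3 samples allow.

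Of the 10 S100 genes, 8 had enough reads to be tested, while S100A14 and S100P were under the filter on low counts. One gene changed at an adjusted p under 0.05 in edgeR's quasi-likelihood test, S100A10, which rose. That is 1 of 8 upward, where 19.8% of the 15179 tested genes rose, and 0 of 8 downward, where 19.5% fell. In either direction 39.3% of tested genes changed, and the difference between 1 of 8 and this share was not tested. At an unadjusted p under 0.05 there were 4 of 8 genes (S100A2, S100A3, S100A10 and S100A16), against 48.3% of tested genes, and DESeq2 called 2 of 8 (S100A2 and S100A10), against 39.4%. The study's own limits were an unadjusted p under 0.05 and a fold change of 1.2, for which its methods name no log scale. With 1.2 taken as a log2 fold change, 0 of 8 S100 genes passed, against 8.66% of tested genes. Taken as a linear fold, 4 of 8 passed (S100A2, S100A3, S100A10 and S100A16), against 47.6%. The median log2 fold change was -0.20 over the 8 genes and 0.03 over all tested genes.

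**Figure D1:**
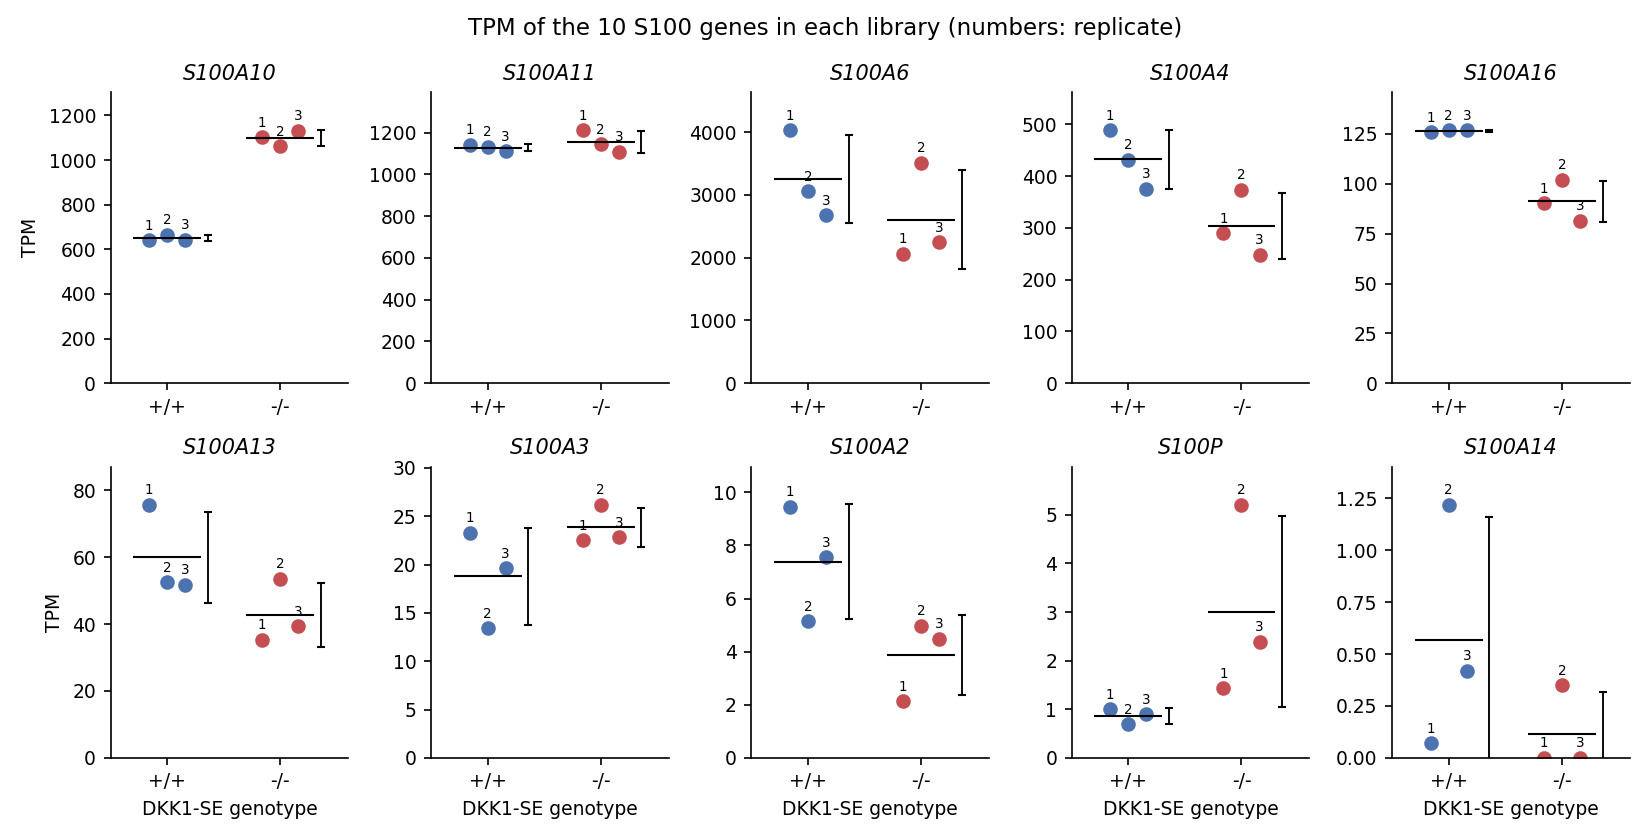
TPM (vertical axis, linear, from 0) of each S100 gene in the DKK1-SE+/+ (blue) and DKK1-SE-/- (red) libraries, with replicate numbers beside the points, the group mean as a line and 1 SD as a bar (n = 3). S100A10 lies between 641 and 665 in DKK1-SE+/+ cells and between 1061 and 1132 in DKK1-SE-/- cells, while the points of S100A6, S100A11, S100A13, S100A3 and S100A14 overlap between the groups.

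S100A10 differs from its relatives in that it no longer binds calcium and stays in the open form. It binds annexin A2, and the complex sits at the plasma membrane, where it holds plasminogen and its activators. The gene (ENSG00000197747) lies on the minus strand of chromosome 1 from 151982915 to 151993859 in hg38. Its promoter is shown because it is the S100 gene that changed, beside that of S100A11, its nearest S100 neighbour. Both are RefSeq windows on GRCh38.p14 from 250 bases before to 50 bases after the transcription start, on the minus strand, at chr1:151993810-151994109 for S100A10 and chr1:152036955-152037254 for S100A11. Capitals mark GGGCGG, the GC box searched on both strands, which 45.0% of the 35116 promoter windows of the same length held.
S100A10: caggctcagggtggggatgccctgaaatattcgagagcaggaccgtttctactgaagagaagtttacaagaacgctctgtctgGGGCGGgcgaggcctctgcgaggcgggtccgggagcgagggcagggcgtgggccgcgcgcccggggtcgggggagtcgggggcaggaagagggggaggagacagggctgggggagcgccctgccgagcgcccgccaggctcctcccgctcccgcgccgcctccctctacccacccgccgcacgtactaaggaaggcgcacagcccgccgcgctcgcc
S100A11: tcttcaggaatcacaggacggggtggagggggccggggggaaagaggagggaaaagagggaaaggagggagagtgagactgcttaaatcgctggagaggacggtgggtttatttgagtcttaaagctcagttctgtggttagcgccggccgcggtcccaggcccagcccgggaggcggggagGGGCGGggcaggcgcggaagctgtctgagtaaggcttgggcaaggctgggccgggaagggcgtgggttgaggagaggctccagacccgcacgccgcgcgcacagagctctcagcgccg
The GC box began at position -167 from the start in S100A10 and -68 in S100A11. Neither window held the AP-1 letters (TGA, any base, then TCA) or the TATA box letters TATAAA.

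S100A10 had a TPM of 641, 665 and 644 in DKK1-SE+/+ cells and 1103, 1061 and 1132 in DKK1-SE-/- cells. Every DKK1-SE-/- library was above every DKK1-SE+/+ library, and the libraries of a group lay close together. The means were 650 ± 13.1 and 1099 ± 35.9 (SD, n = 3), and the estimated fold was 1.91 (95% interval 1.65 to 2.22). Its log2 fold change was 0.94 (SE 0.0962, adjusted p = 4.52e-05 by edgeR, higher in 3 of 3 samples). Non-overlap of TPM in this direction was seen in 17.5% of tested genes, and in 1 of 8 S100 genes. Over the 18 other ways of processing that were tried, the log2 fold change of S100A10 ranged from 0.76 to 0.95 and the adjusted p from 1.47e-16 to 0.00430.

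The transcripts of S100A10 and of its partner annexin A2 did not move together. ANXA2 had a TPM of 2510, 2367 and 2219 in DKK1-SE+/+ cells and 1772, 2125 and 2066 in DKK1-SE-/- cells. Its groups did not overlap in TPM and lay in the opposite order to S100A10, but the counts gave a log2 fold change of -0.08 (SE 0.11, adjusted p = 0.573 by edgeR, 95% interval -0.32 to 0.15). The ratio of S100A10 TPM to ANXA2 TPM was 0.255, 0.281 and 0.290 in DKK1-SE+/+ cells and 0.622, 0.499 and 0.548 in DKK1-SE-/- cells. ANXA2 stayed the more abundant of the pair in all 6 libraries.

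S100A11, a partner of annexin A1, was nearly level. It had a TPM of 1142, 1133 and 1110 in DKK1-SE+/+ cells and 1213, 1146 and 1109 in DKK1-SE-/- cells. The groups overlapped, with DKK1-SE-/- replicate 3 the lowest of the 6 libraries and DKK1-SE-/- replicate 1 the highest. Its log2 fold change was 0.23 (95% interval -0.01 to 0.47, adjusted p = 0.113 by edgeR), and without DKK1-SE-/- replicate 3 it was 0.29 with an adjusted p of 0.0198. That was the 1 of 18 other ways of processing in which it passed, and it was 0.03 (adjusted p = 0.827) with limma on log2(TPM + 1) and 0.08 (adjusted p = 0.412) with an offset for GC content.

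S100A6, known as calcyclin, binds the ubiquitin ligase adaptor CACYBP and was the most abundant S100 gene in both groups. Its TPM was 4035, 3059 and 2675 in DKK1-SE+/+ cells and 2063, 3515 and 2247 in DKK1-SE-/- cells. By mean TPM it ranked 33 of 62703 genes in DKK1-SE+/+ cells and 39 in DKK1-SE-/- cells. DKK1-SE+/+ replicate 1 and DKK1-SE-/- replicate 2 were the highest libraries, and the groups overlapped. The log2 fold change of S100A6 was -0.10 (95% interval -0.56 to 0.36, adjusted p = 0.722 by edgeR), and its sign turned without DKK1-SE+/+ replicate 1 (0.05) and without DKK1-SE-/- replicate 3 (0.01).

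S100A4 binds non-muscle myosin and is known for a part in cell movement and metastasis, and S100A3, whose annotated span lies within that of S100A4 on the same strand, is best known from the hair cuticle. S100A2 is a mostly nuclear protein of epithelial cells. The promoters of these 3 genes are shown because S100A2 and S100A3 hold the AP-1 letters and S100A4 the TATA box letters. AP-1 is the factor that the study placed at the deleted enhancer. The windows are again from RefSeq on GRCh38.p14, minus strand, at chr1:153565795-153566094 for S100A2 (the first of 2 windows listed for it), chr1:153549209-153549508 for S100A3 and chr1:153545757-153546056 for S100A4. Capitals mark the AP-1 letters, TATAAA and the GC box, each searched on both strands.
S100A2: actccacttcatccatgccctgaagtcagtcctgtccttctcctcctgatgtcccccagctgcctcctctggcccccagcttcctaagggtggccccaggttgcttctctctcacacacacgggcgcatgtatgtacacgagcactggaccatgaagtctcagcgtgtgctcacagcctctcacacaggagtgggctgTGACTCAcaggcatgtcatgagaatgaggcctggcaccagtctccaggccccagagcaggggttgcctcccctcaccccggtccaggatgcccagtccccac
S100A3: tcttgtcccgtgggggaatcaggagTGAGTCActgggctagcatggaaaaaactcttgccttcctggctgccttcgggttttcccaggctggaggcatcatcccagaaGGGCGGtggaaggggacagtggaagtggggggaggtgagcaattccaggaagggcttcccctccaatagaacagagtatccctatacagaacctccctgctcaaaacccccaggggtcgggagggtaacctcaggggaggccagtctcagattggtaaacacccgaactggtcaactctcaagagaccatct
S100A4: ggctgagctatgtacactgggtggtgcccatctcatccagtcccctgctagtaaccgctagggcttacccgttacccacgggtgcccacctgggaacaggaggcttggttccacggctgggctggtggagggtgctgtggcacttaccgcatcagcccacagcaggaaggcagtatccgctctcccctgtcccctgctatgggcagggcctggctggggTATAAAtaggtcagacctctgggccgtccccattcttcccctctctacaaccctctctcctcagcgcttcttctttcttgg
The AP-1 letters began at position -52 in S100A2 and -225 in S100A3, and TATAAA at -31 in S100A4. S100A3 also held the GC box, at -142. The AP-1 letters were in 7.71% and the TATA box letters in 11.5% of all 35116 windows. All 10 S100 genes matched the promoter table, with 14 windows, of which 2 held the AP-1 letters, 3 the TATA box letters and 6 the GC box.

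S100A2 had a TPM of 9.46, 5.14 and 7.55 in DKK1-SE+/+ cells and 2.14, 4.98 and 4.48 in DKK1-SE-/- cells. The groups did not overlap, though DKK1-SE+/+ replicate 2 and DKK1-SE-/- replicate 2 were close. It rested on few reads, from 23 to 117 counts a library. With a log2 fold change of -0.85 (SE 0.32, 95% interval -1.55 to -0.14), it missed the threshold (adjusted p = 0.0564 by edgeR). It passed in 8 of the 18 other ways of processing, over which the adjusted p ran from 0.00932 to 0.210. Among the 8 were the omission of DKK1-SE+/+ replicate 2 (-1.02) and of DKK1-SE-/- replicate 2 (-1.2, adjusted p = 0.0241).

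S100A3, the other gene with AP-1 letters, stood on the opposite side. Its TPM was 23.3, 13.4 and 19.6 in DKK1-SE+/+ cells and 22.5, 26.2 and 22.8 in DKK1-SE-/- cells. The groups overlapped because DKK1-SE+/+ replicate 1 was as high as the DKK1-SE-/- libraries. Its log2 fold change was 0.51 (SE 0.20, adjusted p = 0.0686 by edgeR), and 0.66 with an adjusted p of 0.0455 without DKK1-SE+/+ replicate 1. It was 0.28 (adjusted p = 0.258) with an offset for GC content and 0.33 (adjusted p = 0.252) without DKK1-SE+/+ replicate 2, and passed in 1 of the 18 other ways of processing.

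S100A4 had a TPM of 489, 432 and 376 in DKK1-SE+/+ cells and 290, 374 and 248 in DKK1-SE-/- cells. The lowest DKK1-SE+/+ library and the highest DKK1-SE-/- library were all but equal, and the groups did not overlap. By counts its log2 fold change was -0.29 (SE 0.17, 95% interval -0.67 to 0.09, adjusted p = 0.201 by edgeR), and from -0.48 to -0.14 with 1 library left out. S100A3 and S100A4 overlap on the same strand, but the counts of both were whole numbers in all 6 libraries, which gives no sign of reads divided between them.

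S100A16, a widely expressed member that binds calcium weakly, had the tightest control values. Its TPM was 126, 127 and 127 in DKK1-SE+/+ cells and 90.3, 102 and 81.6 in DKK1-SE-/- cells. Every DKK1-SE-/- library was lower. In the count test the log2 fold change was -0.30 (SE 0.13, 95% interval -0.59 to -0.01) and the adjusted p 0.0919 by edgeR. It passed in 7 of the 18 other ways of processing, among them the omission of DKK1-SE-/- replicate 2 (-0.42, adjusted p = 0.0435).

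S100A13 takes part in the export of FGF1 and interleukin-1 alpha, proteins that leave cells without a signal peptide. Its TPM was 75.7, 52.5 and 51.8 in DKK1-SE+/+ cells and 35.3, 53.6 and 39.4 in DKK1-SE-/- cells. DKK1-SE-/- replicate 2 lay among the DKK1-SE+/+ libraries, and the other 2 below them. The log2 fold change was -0.33 (95% interval -0.80 to 0.14, adjusted p = 0.238 by edgeR), and from -0.59 to -0.17 with 1 library left out. S100A13 overlaps S100A1 on the opposite strand and the lncRNA gene ENSG00000271853 on its own, and its counts were not whole numbers in 6 of 6 libraries, so its level is less certain than the others.

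Counting by TPM alone, 3 of the 8 tested genes (S100A2, S100A4 and S100A16) lay lower in all DKK1-SE-/- libraries, against 26.7% of tested genes, and in either direction 4 of 8, against 44.2%. TPM and scaled counts differ in their zero: the median log2 fold change of all tested genes was -0.08 with limma on log2(TPM + 1), which is -0.11 from that of the count test. Relative to that median, S100A4 stood at -0.43 and S100A16 at -0.39 on the TPM scale, and both passed there (adjusted p = 0.0419 and 0.0109 by limma).

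The calls among the lower genes also differed between fits with and without offsets for base composition and length. Across all tested genes the median log2 fold change was -0.39 for transcripts under 40% GC, 0.06 from 40 to 60% and 0.33 above 60%. The S100 transcripts had 47.5 to 60.2% GC and were 453 to 1025 nt long. With an offset for GC content in each library, 4 of 8 S100 genes fell at an adjusted p under 0.05 by edgeR, against 21.0% of all tested genes, and 1 of 8 rose, against 20.0%. Those that fell were S100A2 (log2 fold change -1.01), S100A4 (-0.51), S100A13 (-0.53) and S100A16 (-0.55, adjusted p = 8.58e-04), and S100A10 rose by 0.90. The call of S100A13 (adjusted p = 0.0476 by edgeR) was lost when the replicate block was added to this fit (-0.54, adjusted p = 0.0502). An offset for transcript length gave 3 of 8 lower (S100A2, S100A4 and S100A16), against 21.1% of tested genes, and 1 of 8 higher, S100A10, against 20.6%. Whether GC content or length caused part of the differences was not tested.

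Within a group, several S100 genes varied together from library to library. DKK1-SE+/+ replicate 1 and DKK1-SE-/- replicate 2, the deepest libraries of their groups, were above their group means for S100A6 by 0.34 and 0.50, for S100A13 by 0.35 and 0.44, and for S100A2 by 0.45 and 0.56 (log2 CPM). The same libraries were high for the 82 tested ribosomal protein genes, whose median deviation was 0.23 and 0.39. S100A10 (-0.01 and -0.01) and S100A11 (0.03 and 0.02) were near their group means in these 2 libraries, and S100A16 was in the former (0.01) but not in the latter (0.23). Ribosomal protein genes held 15.3, 12.3 and 12% of TPM in the DKK1-SE+/+ libraries, against 9.44, 13.8 and 9.34% in the DKK1-SE-/- libraries. Counts of mitochondrially encoded genes made up 5.48, 6.38 and 6.28% of DKK1-SE+/+ libraries and 8.58, 7.31 and 7.40% of DKK1-SE-/- libraries. The part of library quality or depth in the S100 values was not tested. Without the 2 deepest libraries, left out after seeing the data, S100A10 was still the S100 gene that changed, with a log2 fold change of 0.94.

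The members with fewest reads could be described by their counts only. S100P binds ezrin and RAGE and is known as a marker of pancreatic ductal tumours, but in PANC-1 it had 4, 2 and 3 counts in DKK1-SE+/+ cells and 5, 21 and 8 in DKK1-SE-/- cells. All DKK1-SE-/- libraries were higher, and replicate 2 held 21 of the 34 counts of its group. Per total count the ratio was 3.90 (95% exact interval 1.83 to 9.25, which covers counting error only). With no filter on low counts, edgeR gave a log2 fold change of 1.95 and an adjusted p of 0.0441, which became 1.26 and 0.504 without DKK1-SE-/- replicate 2. The call was also lost without DKK1-SE+/+ replicate 1 (adjusted p = 0.0927), 2 (0.127) or 3 (0.0988). S100A14, an epithelial member, had 1, 3 and 5 counts in DKK1-SE+/+ cells and 0, 6 and 0 in DKK1-SE-/- cells. The groups overlapped, and the ratio of 0.689 had an interval of 0.202 to 2.17, so that no difference was detectable at this depth.

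In order of mean TPM, both groups ran S100A6, S100A11, S100A10, S100A4, S100A16, S100A13, S100A3, S100A2, S100P and S100A14. In DKK1-SE+/+ cells S100A11 (1128 ± 16.9) stood well above S100A10 (650 ± 13.1). In DKK1-SE-/- cells the 2 genes were at 1156 ± 52.6 and 1099 ± 35.9, and their libraries overlapped (SD, n = 3). In TMM-scaled counts per kilobase the order of these 2 turned in DKK1-SE-/- cells, with S100A10 at 1251, S100A11 at 1090 and S100A6 at 1268. The summed TPM of the 10 genes was 6543, 5489 and 5011 in DKK1-SE+/+ cells and 4820, 6288 and 4887 in DKK1-SE-/- cells. The sums overlapped, and the order of the group means depended on the scale, from 5681 to 5332 in TPM but from 3538 to 4098 in TMM-scaled counts per kilobase.

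Of the 11 other S100 genes, 8 had no count in any library (S100A7, S100A7A, S100A7L2, S100A8, S100A9, S100A12, S100B and S100G). Among them S100A7L2 is annotated as an unprocessed pseudogene. The 10 further named S100 pseudogenes also had no count. The absent genes include S100A8 and S100A9, which are abundant in myeloid cells, and S100B, which marks glia. S100A1, which acts on calcium handling in muscle, was the most abundant of the 11 and the only one tested. Its TPM was 2.95, 3.42 and 2.62 in DKK1-SE+/+ cells and 2.02, 1.43 and 1.69 in DKK1-SE-/- cells, without overlap, with a log2 fold change of -0.56 (adjusted p = 0.213 by edgeR). S100A5 had 3 to 12 counts a library, with overlap, and S100Z had 0 in DKK1-SE+/+ cells and 3, 0 and 2 in DKK1-SE-/- cells.

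By position the chromosome 1 genes fell into 2 ends. S100A10 and S100A11 lie near the start of the cluster, and S100A6, S100A4, S100A3, S100A2, S100A16, S100A14 and S100A13 lie between 153534599 and 153631360. Among tested genes around the S100A10 end, out to 1 Mb, the median log2 fold change was 0.23, with 12 of 34 genes higher and 2 lower at an adjusted p under 0.05, both with S100A10 counted. Around the S100A6 to S100A13 end it was near 0, with 5 of 33 higher and 1 lower. The tested genes of the whole long arm had a median of 0.01, and 32.8% of 644 changed. The difference between the ends was not tested. Of all tested genes 19.8% rose and 19.5% fell. HRNR and TCHH, among the 12 higher genes, passed the filter on low counts only through the DKK1-SE-/- libraries. Their calls are not read as rises, and the shares of the S100A10 end are not comparable. Directions depended on the scale. By counts 17 genes of the whole window rose and 3 fell, or 16 and 3 without the S100 genes, with HRNR and TCHH among those that rose. In this window 5 rose and 6 fell with limma on log2(TPM + 1), and 6 and 6 on log2(TPM + 0.1).

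The genes next to S100A10 and S100A11 on the side toward the other S100 genes encode S100 fused-type proteins, large proteins of skin and hair that carry an S100 domain at the start. Of 7 such genes 3 were tested, all at very low levels. FLG, filaggrin, had a TPM of 0.38, 0.42 and 0.5 in DKK1-SE+/+ cells and 1.17, 1.11 and 1.69 in DKK1-SE-/- cells. Its log2 fold change was 1.74 (SE 0.18, adjusted p = 4.55e-05 by edgeR), and the groups did not overlap. HRNR had 21, 6 and 17 counts in DKK1-SE+/+ cells and 45, 49 and 53 in DKK1-SE-/- cells. TCHH had 10, 3 and 10 counts in DKK1-SE+/+ cells and 26, 16 and 39 in DKK1-SE-/- cells. HRNR and TCHH passed the filter on low counts only through the DKK1-SE-/- libraries. No test of these genes is therefore given, and this list is not set against the share of all genes. On log2(TPM + 1) limma called FLG alone, and with a mean TPM of at least 1 required none was tested. Within 1 Mb of S100P, 2 of 16 tested genes rose and 2 fell, where 39.3% of all tested genes changed, and the median log2 fold change was 0.03. Their number ran from 2 to 8 with 1 library left out. WFS1 (0.70) and PPP2R2C (-0.67) had the smallest p-values there.

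Annexins bind membranes when calcium rises, and several are held together in pairs by S100 dimers. Of 13 annexin genes 10 were tested, with 3 calls upward, ANXA3 among them, and 3 downward, and 39.3% of all tested genes changed. ANXA3 passed the filter on low counts only through the DKK1-SE-/- libraries, which favours a call upward. Its call is therefore not read as a rise, and the shares are not comparable. The median log2 fold change was -0.02. ANXA6 fell (log2 fold change -1.10, adjusted p = 3.90e-05 by edgeR), from a TPM of 37.4 ± 1.52 to 15.8 ± 0.196. ANXA1, the partner of S100A11, fell by 0.62 (adjusted p = 0.0106 by edgeR), and ANXA4 by 0.53 (adjusted p = 0.00324), but with the GC offset they stood at -0.27 (adjusted p = 0.0579) and -0.15 (adjusted p = 0.289). ANXA5 (0.46) and ANXA7 (0.55) rose. ANXA3 had 4, 0 and 5 counts in DKK1-SE+/+ cells and 23, 20 and 42 in DKK1-SE-/- cells. The call of ANXA5 was lost with limma on log2(TPM + 0.1) (0.29, adjusted p = 0.0513) and without the 2 deepest libraries (0.40, adjusted p = 0.0702). With ANXA3 set aside, calls were still divided between both directions.

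Among 37 receptors and binding partners of S100 proteins, 30 were tested, 13 rose and 6 fell. The most abundant was PLAU, which encodes urokinase, a plasminogen activator. It rose from a TPM of 444, 430 and 434 to 864, 797 and 841, without overlap, with a log2 fold change of 1.10 (SE 0.0993, adjusted p = 1.83e-05 by edgeR). DLC1, which S100A10 binds, rose from 5.77 ± 0.862 to 19.6 ± 0.508 TPM. CTSD (0.90) and MYH14 (0.88), the latter a non-muscle myosin, also rose. EZR, the ezrin that S100P binds, fell from a TPM of 398, 448 and 437 to 214, 201 and 235. Its groups were far apart, with a log2 fold change of -0.84 (adjusted p = 9.51e-05 by edgeR). TPM1 fell by 1.08 and SYT1 by 1.38 on the log2 scale. CACYBP, the S100A6 partner, fell by 0.50, and with the GC offset it stood at -0.19 (adjusted p = 0.111). IQGAP1 fell by 0.48 (adjusted p = 0.0158), a call lost without DKK1-SE+/+ replicate 2 (0.0593) or DKK1-SE-/- replicate 2 (0.0561). AGER, the receptor itself, was low, at 1.34 ± 0.296 and 0.753 ± 0.0666 TPM, and did not pass (log2 fold change -0.91, adjusted p = 0.0731). It passed with the GC offset (-1.12, adjusted p = 0.0312) and the length offset (-1.04, adjusted p = 0.0447).

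Other EF-hand proteins gave 13 higher and 5 lower of 37 tested, a sum that ran from 11 to 21 with 1 library left out (11 without DKK1-SE+/+ replicate 1 or 2) and was 4 without the 2 deepest libraries. The most abundant was CAPNS1, the small subunit of calpain, whose groups overlapped (log2 fold change 0.12, adjusted p = 0.463 by edgeR). SPARC, a secreted matrix protein, rose from 1.06 ± 0.236 to 6.02 ± 0.980 TPM, and CAPN1, a calpain, rose with a log2 fold change of 0.82. CALM2, 1 of the 3 calmodulin genes, fell from 984 ± 124 to 483 ± 106 TPM (log2 fold change -0.86, adjusted p = 0.00155). Changed genes made up 48.6% of this list, 63.3% of the receptors and partners, against 39.3% of all tested genes. These differences in share were not tested, and the lists were chosen with earlier results of these data known.

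The genes that ran most like S100A10 over the 6 libraries, by Euclidean distance of log2 CPM from the DKK1-SE+/+ mean, were FAM131A (0.0588), TRAF1 (0.0620) and SEC61A1 (0.0719). Their log2 fold changes were 0.95, 0.93 and 0.94. For S100A2, which had the smallest p among the lower genes, near ones were SRP9P1 (0.391) and LINC02454 (0.421), at larger distances. Neither passed the test, though SRP9P1 did in 4 of the other ways of processing, among them without DKK1-SE-/- replicate 2 (-1.33, adjusted p = 0.0140) and with no filter (-0.78, adjusted p = 0.0127).

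The labelled line was checked against marker genes. Of 6 epithelial genes, KRT8 (957 ± 27.2 to 1560 ± 171 TPM), KRT18 (856 ± 12.9 to 1213 ± 74.2) and KRT19 (53.9 ± 5.79 to 172 ± 25.9) rose, while EPCAM (4.17 ± 0.554 to 2.58 ± 0.803) fell with an adjusted p of 0.0395 by edgeR, a call lost in 11 of the 18 other ways of processing. Among these were the omission of DKK1-SE+/+ replicate 1 (0.123), 2 (0.0795) or 3 (0.0663) and of DKK1-SE-/- replicate 1 (0.0929) or 2 (0.0580). KRT7 stood at 0.47 on the log2 scale (adjusted p = 0.0785; 0.0134 without DKK1-SE-/- replicate 3), and CDH1 was low in both groups (1.59 ± 0.459 and 1.35 ± 1.17 TPM). VIM (4159 ± 390 to 2684 ± 143) and ZEB1 (9.52 ± 0.323 to 3.77 ± 0.924), genes of the mesenchymal state, fell. FN1 rose by counts (log2 fold change 2.70) but not in TPM (1.58 ± 0.457 and 2.38 ± 1.23). Acinar, endocrine and endothelial genes each summed to at most 0.330 TPM in any library, and 5 keratinocyte genes (KRT5, KRT14, IVL, LORICRIN and SPRR1B) to at most 0.190. Of the leukocyte genes, CD68 was at 43.5 ± 2.81 and 66.6 ± 1.61 TPM, and PTPRC, CD3E, LYZ and MS4A1 were at most 0.1 TPM in any library. Among fibroblast genes COL1A1 fell from 98.7 ± 6.72 to 12.3 ± 3.61 TPM, with PDGFRB, DCN and LUM under 1 TPM in both groups on average. Their part in the S100 values was not tested, and in these bulk samples fewer cells of a kind and less RNA per cell cannot be told apart.

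Other genes bear on the label of 1 line. CDKN2A, which PANC-1 is known to have lost by deletion, had 0 counts in every DKK1-SE+/+ library and 91, 132 and 54 in the DKK1-SE-/- libraries, a TPM of 8.52, 10.8 and 5.58. IRS4 had 0 counts in DKK1-SE+/+ cells and 746, 976 and 1067 in DKK1-SE-/- cells. Both genes were picked after their values were seen and passed the filter on low counts only through the DKK1-SE-/- libraries, so no test of them is given. With limits set after seeing the data and sex-linked check genes left out, 5 genes were under 0.1 TPM in all DKK1-SE+/+ libraries and at 5 TPM or more in all DKK1-SE-/- libraries. By the same limits 0 genes showed the reverse. XIST, a sex-linked gene, had a log2 fold change of 14.41 by edgeR. Large falls that did not meet these limits included GREM1 (-7.29) and PLPP4 (-6.78). XIST, GREM1 and PLPP4 were also picked after their values were seen, and no test of them is given. Whether the DKK1-SE-/- libraries held RNA of another line was not tested, and such RNA, the subclone and the deletion cannot be told apart as sources of the S100 differences.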

How the data were processed

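The authors had stranded mRNA libraries sequenced and deposited 1 table of the whole series. For every sample and gene it gives the expected count, estimated and not normalized by the authors, and TPM, which the authors normalized within each library, with their mean TPM of each group and, as another value, a gene length. The build is hg38 per the submitters' processing notes, and the aligner and counting program are not given in the sources used here. The authors' comparison columns, the fold ratio, its log2, and the p-value of each gene before and after adjustment, were deposited in the same table and were not used.

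Expected counts were rounded and tested with edgeR 4.0.16 in R 4.3.3 (filterByExpr with a minimum count of 10, TMM, quasi-likelihood F test without covariates). P-values were adjusted by the Benjamini-Hochberg method over 15179 genes, and the SE was the absolute log2 fold change over the square root of F. P-values measure the spread among replicates of 1 line and 1 subclone. Alternatives used DESeq2 1.42.0, limma 3.58.1 with a trend, RLE or library size alone, other filters, the replicate block, offsets for GC content or length in 40 bins, and samples left out. Positions and GC content came from GENCODE 44 (62625 genes placed), and promoters from RefSeq GRCh38.p14. The fits were also run on simulated data with 200 changed genes, and the outcome is not reported here.

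The named genes were all S100 genes, DKK1, the 3 genes nearest to the S100 gene with the smallest p in each direction and, of each list, the most abundant and up to 5 in each direction with the smallest p among changed genes, of which examples are printed; some are not reported here. AGER, FLG-AS1, CDKN2A, IRS4, XIST, GREM1 and PLPP4 were named beside this rule, after their values were seen. The members and lists were chosen with earlier results of these data known.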

Additional observations from a re-analysis of the deposited data

How the results depend on the processing

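S100A10 rose and DKK1 fell in all 18 alternatives (log2 fold change 0.76 to 0.95 and -1.55 to -1.31). The S100 count of 1 became 2 with DESeq2, RLE, library size alone or a mean TPM of at least 1, 3 with no filter or with limma on log2(TPM + 1) or log2(TPM + 0.1), 5 with the GC offset, 4 with the replicate block and GC offset and 4 with the length offset. Leaving out 1 library gave 1 to 3, and without the 2 deepest libraries, an alternative added after seeing the data, it was 1. Calls with no filter or a mean TPM of at least 1 included S100P. S100P met the latter only through the DKK1-SE-/- libraries, with means of 0.863 (DKK1-SE+/+) and 3.01 TPM (DKK1-SE-/-). Its call there is not read as a rise.

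S100A2 passed at -0.86 with DESeq2, RLE or no filter, -1.01 with the GC offset, -1.02 with the block and GC offset and -0.90 with the length offset, and ran from -1.2 to -0.61 with 1 library left out. S100A4 passed at -0.52 with limma at either pseudocount, -0.51 with the GC offset, -0.52 with the block and GC offset and -0.35 with the length offset. S100A16 passed at -0.38 by library size alone, -0.47 with limma at either pseudocount, -0.55 with the GC offset, -0.56 with the block and GC offset and -0.45 with the length offset, and ran from -0.42 to -0.19 with 1 library left out. S100A13 passed at -0.53 with the GC offset, but not with the block and GC offset (-0.54). S100A3 ran from 0.33 to 0.66 and S100A11 from 0.13 to 0.29 with 1 library left out. The cause of these shifts was not tested.

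The study's limits took 1 S100 gene (S100P) with no filter or a mean TPM of at least 1, 4 where 1.2 was read as a linear fold, and 0 to 1 with 1 library left out, S100A2 without DKK1-SE-/- replicate 2. As above, S100P met the mean TPM filter only through the DKK1-SE-/- libraries. Over all genes these limits took 2490 with no filter, 850 with a mean TPM of at least 1, 512 with limma on log2(TPM + 1) and 7227 on the linear fold, against 1314. Changed genes numbered 2510 without the 2 deepest libraries, against 5972, with fewer samples. Without those libraries 12 partners, 4 EF-hand genes, 11 genes near the chromosome 1 S100 genes and 2 near S100P changed. With limma at 1 and 0.1 the chromosome 1 window gave 11 and 12, the other S100 genes 1 and 1, the fused-type genes 1 at 1, and EF-hand genes 11 at 0.1. Fused-type genes were 0 with a mean TPM of at least 1. With 1 library left out, EF-hand genes ran from 11 to 21, the chromosome 1 window from 12 to 21 and the S100P window from 2 to 8.

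Added to the main fit, the replicate block changed no S100 call and gave 2 genes in the S100P window. Added to the GC offset, it ended the call of S100A13 (-0.54, adjusted p = 0.0502 by edgeR). Deviations of same-numbered samples correlated at -0.12, -0.07 and -0.11 across genes, and no sample correlated best with its own number, so the numbers were not taken as a pairing. Low counts limit S100A14 (0 to 6 a library) and S100P (2 to 21 a library).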
